A study of Mus musculus with 6 samples.

Results

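The genes described here are the mouse regulators of pre-mRNA splicing that belong to the SR, hnRNP, CELF, MBNL, RBFOX and PTBP families, with the muscle regulators Rbm20 and Rbm24. They were taken from the deposited FPKM table by symbol (names starting with Srsf, Hnrnp, Celf, Mbnl, Rbfox or Ptbp, and both Rbm genes), and a mean of at least 1 FPKM over the 6 libraries was required. FPKM gives a gene's fragments relative to its length in kilobases and to the mapped fragments of the library. Of 48 such genes among the 21989 in the table, 42 passed: 9 SR, 20 hnRNP, 4 CELF, 2 MBNL, 2 RBFOX and 3 PTBP genes, and Rbm20 and Rbm24. The genes just inside the limit were Celf3 (mean 1.27 FPKM), Rbfox1 (1.38), Celf5 (1.38), Celf4 (1.43) and Hnrnpu (1.51). Those left out were Srsf1 (0.937), Mbnl3 (0.343), Rbfox3 (0.234), Celf1 (0.211), Celf6 (0.0812) and Srsf12 (0.0760). Celf3 and Celf5 passed through 1 saline library, since their means over the other 5 libraries were 0.436 and 0.725 FPKM. Hnrnpu passed through ISO 2, with a mean of 0.782 FPKM over the other 5.

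Splicing regulators bind short sequences in a pre-mRNA and decide which exons the spliceosome joins. SR proteins carry a domain rich in arginine and serine, usually bind exonic enhancers and promote the use of nearby splice sites, while hnRNP proteins often act as silencers. PTBP proteins bind pyrimidine-rich tracts and repress exons, among them many muscle and neuronal exons. MBNL and CELF proteins have opposing effects on many exons that switch as the heart matures, and RBFOX proteins bind UGCAUG elements beside muscle and neuronal exons. RBM20 represses exons of titin and of calcium-handling and sarcomere genes in cardiomyocytes, and RBM24 promotes the inclusion of muscle exons. A gene's total RNA, the quantity measured here, says neither how its own transcripts were spliced nor how active its protein was.

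All animals were male C57BL/6 mice of specific-pathogen-free grade, whose age the labels do not give, and left ventricle was taken for sequencing of polyadenylated RNA. The treated group, labelled as heart failure, received ISO under the skin at 10 mg/kg/d over 3 weeks, and the group labelled as sham received normal saline in the same volume. ISO usually stands for isoproterenol, which activates beta-adrenergic receptors. There were 3 libraries per group. The labels call them biological repeats without naming single animals, so each p-value refers to the spread among these libraries, which may in part be technical.

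Library totals recovered from the FPKM values ran from 2776152 reads in saline 3 to 9862363 in saline 1, so that 1 read on a gene of 1 kilobase was worth 0.101 FPKM in saline 1 and 0.360 in saline 3. Saline 3 stood apart from the rest. Over the splicing regulators, its Pearson r with the other libraries (log2 scale, across genes, which are not replicates) was 0.740 to 0.787, against 0.963 to 0.990 among the other 5 libraries. Fold changes that rest on it are therefore also given without it. The labelled tissue was checked against chamber markers. Myl7, the myosin light chain typical of atria, was above Myl2, its ventricular counterpart, in 5 of 6 libraries: the Myl2 values were 2566, 526 and 9101 FPKM for saline 1 to 3 and 1985, 1962 and 140 for ISO 1 to 3, and Myl7 lay between 7469 and 16664 FPKM. The summed atrial list was at 10449 to 26404 FPKM and the summed ventricular list at 187 to 13442. The part that chamber makeup has in the values below was not tested. In whole tissue, fewer cells of a type and less RNA per cell cannot be told apart.

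No splicing regulator passed the test between ISO and saline. The test was limma's moderated test on log2(FPKM + 1) over 12269 genes, with Benjamini-Hochberg adjustment and a threshold of 0.05, and the smallest adjusted p among the 42 genes was 0.699. None of the 12269 genes passed either (0.0%). At an unadjusted p under 0.05 there were 774 genes (6.31%) and 0 splicing regulators. Limma-voom on the recovered reads called 0 genes. It gave 674 genes, among them 1 splicing regulator, Ptbp3, an unadjusted p under 0.05. Fitted log2 fold changes were above 0 for 29 splicing regulators and below 0 for 13, with a median of 0.23 against 0.20 over all genes tested. Scaling the libraries by the median of ratios moved the median of all genes to 0.0055 and that of the splicing regulators to 0.0043, with 22 above 0 and 20 below, and there too 0 splicing regulators had an unadjusted p under 0.05 in limma (5.66% of all genes). Relative to the other genes, then, the median of the splicing regulators lay near 0 under both scalings.

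**Figure D1:**
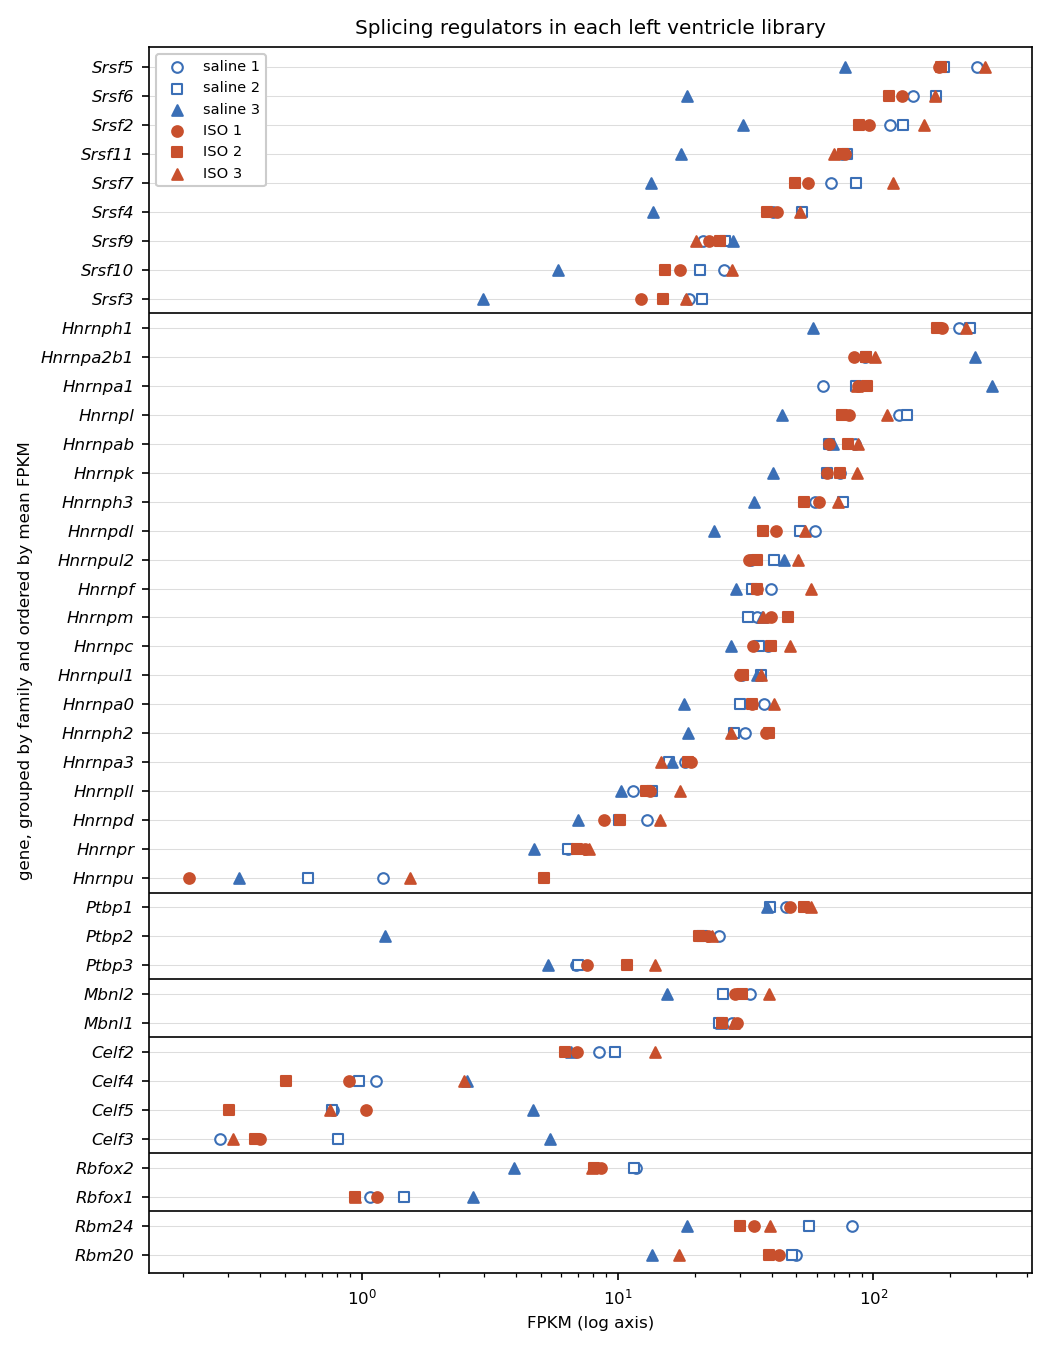
FPKM of each splicing regulator (rows, by family) in each library (points, on a log axis), with saline in blue, ISO in red and a symbol for each library number. Saline 3 is the lowest point for 27 of the 42 genes and the highest for 7.

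The 3 ISO libraries lay apart from the 3 saline libraries for 4 splicing regulators, Ptbp1, Ptbp3, Hnrnpm and Hnrnpr, each with ISO higher. Over all genes tested, 12.8% had every ISO library above every saline library, 3.72% had every one below, and 16.5% either. Leaving out a library makes such a separation easier, and the number rose to 12 of 42 without saline 1 (27.1% of all genes), to 10 without saline 3, to 9 without ISO 1 (24.9%) and to 7 without ISO 3 (28.1%). It was 5 without saline 2 (30.0%) and 5 without ISO 2 (22.0%), and by quantile normalization it was 1 (14.0%). By median of ratios it was 2 (14.7%). Without saline 3, 5 splicing regulators were higher in every ISO library (Hnrnpa1, Hnrnpm, Hnrnpr, Ptbp1 and Ptbp3; 18.3% of all genes) and 5 were lower (Hnrnpl, Rbfox2, Rbm20, Rbm24 and Srsf3; 9.61% of all genes, and 27.9% in either direction). In that fit 3 splicing regulators had an unadjusted p under 0.05, Rbm24, Rbfox2 and Hnrnpl, against 10.0% of all genes, and none passed the adjusted threshold.

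**Figure D2:**
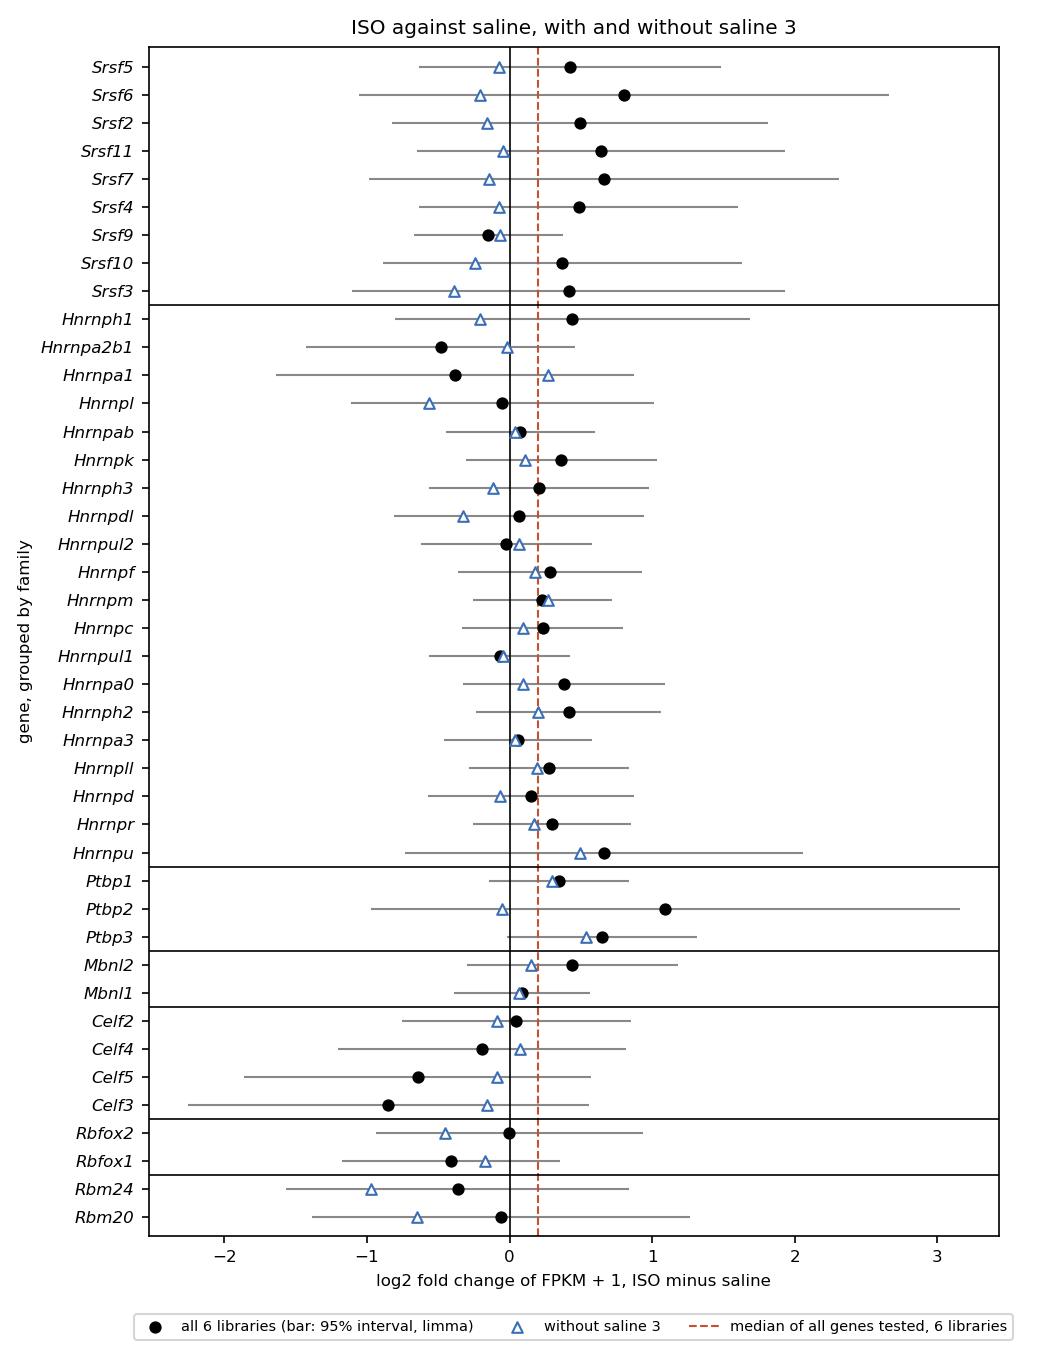
Log2 fold change of each splicing regulator (ISO minus saline, log2(FPKM + 1) scale) with its 95% interval from limma over all 6 libraries, and the value without saline 3 as an open triangle; the dashed line is the median of all genes tested. Every interval includes 0, and the SR genes lie mostly right of 0 with saline 3 and left of 0 without it.

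Rbm24 and Rbm20, the muscle-restricted regulators, both lay lower in ISO than in the 2 deeper saline libraries. Rbm24 (GRCm38 chr13:46418434-46431095) had 82.7, 55.9 and 18.6 FPKM in libraries 1, 2 and 3 of saline, and 34.0, 30.1 and 39.3 in those of ISO, the order kept for all genes below. Saline 1 and 2 were the highest libraries and saline 3 the lowest, so the groups overlapped. The means were 52.4 ± 32.2 FPKM in saline and 34.5 ± 4.63 in ISO (SD, n = 3 each), and the log2 fold change was -0.36 (SE 0.51, limma adjusted p = 0.779, 95% interval -1.57 to 0.84). Without saline 3 it was -0.97 (SE 0.23), with a limma adjusted p of 0.339. When libraries were weighted by their quality, where saline 3 had a weight of 0.0772 and ISO 2 of 5.50, it was -1.19, with a limma adjusted p of 0.0192. In that weighted fit 768 genes (6.26%) and 2 splicing regulators, Rbm24 and Hnrnpl, passed.

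Rbm20 (chr19:53677306-53867080) was at 49.7, 47.8 and 13.6 FPKM in the saline libraries and at 42.5, 38.9 and 17.4 in the ISO libraries. A low and 2 high libraries were found in each group, saline 3 and ISO 3 being the low ones. The gene length recovered for Rbm20 from its FPKM, 9269 bases, was above the 6790 bases of its annotated exons, so its counted feature is uncertain. The log2 fold change was -0.060 (SE 0.56, limma adjusted p = 0.968), and -0.65 without saline 3 with an adjusted p of 0.610. The ratio of Rbm20 to Rbm24, which does not depend on the library's scaling, was 0.602, 0.855 and 0.730 in saline and 1.25, 1.29 and 0.442 in ISO. ISO 3 was thus the lowest of the 6 and ISO 1 and 2 the highest, and the log2 ratio differed by 0.31 between the groups (exact permutation test, two-sided, p = 0.6, where 3 against 3 cannot go below 0.10). Together these genes had a median log2 fold change of -0.21, which was below 0 under each scaling (-0.43 by median of ratios, -0.37 by quantiles) and was 0.16 without saline 1 and 0.010 without saline 2.

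Markers of cardiomyocytes, the cells in which RBM20 and RBM24 act in the heart, were lower in ISO. Of the 15 genes of the cardiomyocyte list, 14 had fold changes below 0, and 6 had every ISO library below every saline library (3.72% of all genes). None passed the limma threshold, and none was at 0 in all libraries. Their summed level was 35682 to 45375 FPKM in the saline libraries and 15465 to 24021 in ISO. The sum was highest in saline 3 (45375 FPKM), where Rbm24 and Rbm20 were both lowest. It was lowest in ISO 3 (15465), where Rbm24 had its highest ISO value and Rbm20 its lowest. In saline 1 and 2 the sum was 36615 and 35682 FPKM. In ISO 1 and 2 it was 24021 and 23219, and both genes were lower there than in saline 1 and 2. The part of cardiomyocyte content in the values of Rbm20 and Rbm24 was not tested.

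Known cardiac target transcripts of RBM20, a list of 14 that includes titin, ryanodine receptor and LIM-domain genes, were next compared at the level of total RNA. Of these, 10 had fold changes below 0 and 4 above, none passed the limma threshold and none had an unadjusted p under 0.05, with a median of -0.17 (-0.38 without saline 3, -0.39 by median of ratios). Pdlim5, a Z-disc protein, was at 65.2, 44.0 and 50.3 FPKM in saline and at 40.2, 35.8 and 31.2 in ISO. It was the 1 gene of the list whose groups did not overlap (log2 fold change -0.55, limma adjusted p = 0.699), where 3.72% of all genes had every ISO library lower. Ldb3, another Z-disc protein, was at 193, 157 and 74.6 FPKM in saline and at 95.4, 90.0 and 87.2 in ISO. Its ISO libraries lay between saline 3 and the other saline libraries, and its log2 fold change of -0.53 became -0.93 without saline 3. Cacna1c, the pore subunit of the cardiac calcium channel, and Pdlim3 had log2 fold changes of 0.47 and 0.64, which were 0.13 and -0.0077 without saline 3.

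**Figure D3:**
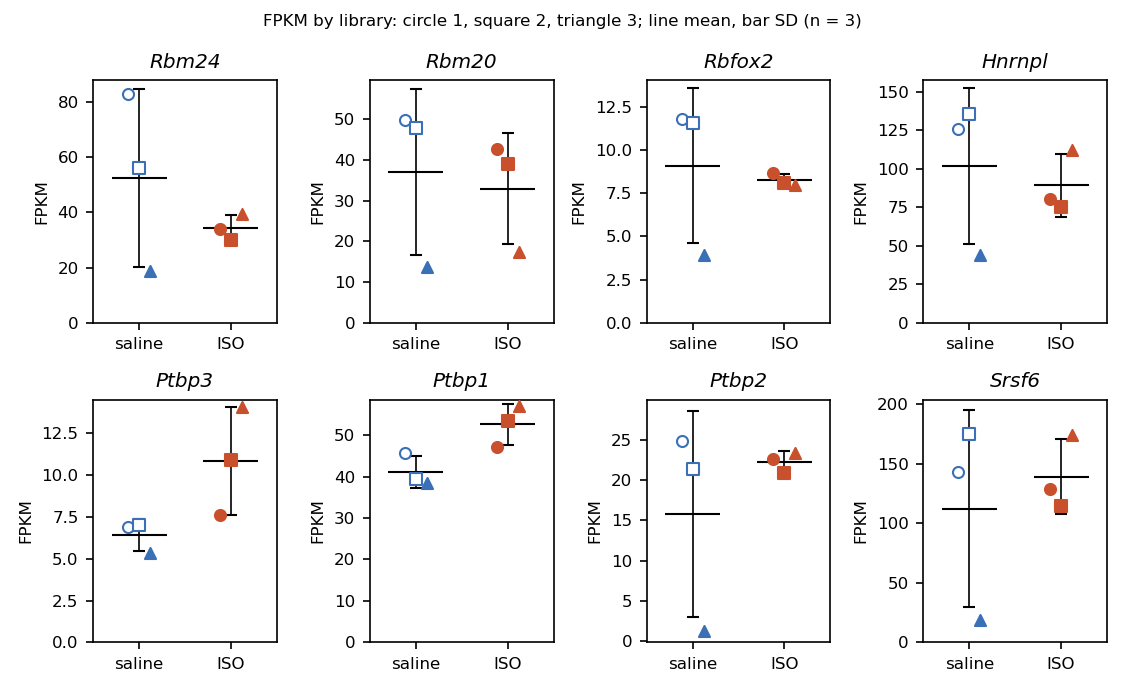
FPKM in each library (points: circle, square and triangle for libraries 1, 2 and 3) with the group mean (line) and SD (whisker, n = 3) for splicing regulators named in the text, each panel with its own axis from 0. Rbm24 in saline 1 (82.7) and saline 2 (55.9) lies above the ISO libraries, while Ptbp2 in saline 3 (1.24) lies far below the other 5 libraries.

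PTBP genes were the family with the largest median log2 fold change, 0.65, and it stayed above 0 under each scaling and without saline 3 (0.44 by median of ratios, 0.42 by quantiles, 0.30 without saline 3), although no PTBP gene passed. Ptbp1 (chr10:79854427-79864771), the widely expressed repressor that falls when muscle and neurons differentiate, was at 45.6, 39.3 and 38.4 FPKM in saline and at 47.2, 53.5 and 57.0 in ISO. All 3 ISO libraries lay above all saline libraries, ISO 1 by a small margin over saline 1. The means were 41.1 ± 3.92 and 52.6 ± 4.98 FPKM (SD, n = 3 each), with a log2 fold change of 0.35 (SE 0.21, limma adjusted p = 0.699) and 0.30 without saline 3. Of its exonic bases, 20.7% are shared with other annotated genes.

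Ptbp3 (chr4:59471868-59549364), a paralog prominent in blood cells, was at 6.90, 7.01 and 5.32 FPKM in saline and at 7.59, 10.9 and 14.0 in ISO. Its groups did not overlap either, and ISO spanned a wider range than saline. The means were 6.41 ± 0.942 and 10.8 ± 3.22 FPKM (SD, n = 3 each), with a log2 fold change of 0.65 (SE 0.28, 95% interval -0.020 to 1.32). This was the smallest unadjusted p of the 42 genes in limma, 0.0556, with an adjusted p of 0.699. Without saline 3 the log2 fold change was 0.54.

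Macrophage, fibroblast and erythroid markers lay higher in the ISO libraries, as these 2 genes did. All 12 genes of the macrophage list had fold changes above 0, and their summed level was 503 to 946 FPKM in saline and 1049 to 2111 in ISO. In the fibroblast list 11 of 12 had fold changes above 0, with summed levels of 1694 to 2429 FPKM in saline and 3045 to 3430 in ISO. All 8 erythroid genes tested had fold changes above 0 (median 1.8 on the log2 scale), 7 of them without overlap (12.8% of all genes with ISO higher). The summed erythroid list was at 6706, 3772 and 3255 FPKM in saline and at 14095, 14579 and 29597 in ISO. No gene of these lists passed the limma threshold, and none was at 0 in all libraries. The part of these cell types in the values of Ptbp1 and Ptbp3 was not tested.

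Ptbp2 (chr3:119718742-119784466), the paralog best known from neurons, was at 24.9, 21.4 and 1.24 FPKM in saline and at 22.6, 20.8 and 23.4 in ISO. Saline 3 held 13 reads of this gene (95% exact Poisson interval 0.658 to 2.11 FPKM, counting error only), and the other 5 libraries lay within 20.8 to 24.9 FPKM. Saline 1 and 2 were 18.7-fold above saline 3, the largest such gap among the 42 genes. The log2 fold change of 1.09 (SE 0.88, limma adjusted p = 0.699) was -0.050 without saline 3. Accordingly, the ratio of Ptbp1 to Ptbp2 was 1.83, 1.84 and 31.1 in saline and 2.09, 2.57 and 2.44 in ISO. The log2 ratio differed by -1.0 between groups with saline 3 (exact permutation test, two-sided, p = 1.0) and by 0.36 without it.

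No MBNL or RBFOX gene passed, and their groups overlapped. Mbnl1 (chr3:60472830-60629750), the main muscleblind protein of the adult heart, was at 28.1, 24.9 and 25.2 FPKM in saline and at 29.2, 25.5 and 28.5 in ISO. It was among the steadiest of the genes, with overlapping groups, means of 26.1 ± 1.73 and 27.7 ± 1.98 FPKM (SD, n = 3 each) and a log2 fold change of 0.085 (95% interval -0.39 to 0.56, limma adjusted p = 0.873). By median of ratios it was -0.14. Mbnl2 was at 33.0, 25.8 and 15.5 FPKM in saline and at 28.8, 30.6 and 39.2 in ISO. The highest library was ISO 3 and the lowest saline 3, and the log2 fold change was 0.44 (SE 0.32, limma adjusted p = 0.699) and 0.15 without saline 3. The ratio of Mbnl1 to Mbnl2 was 0.851, 0.965 and 1.62 in saline and 1.02, 0.834 and 0.727 in ISO, a difference of -0.37 on the log2 scale (exact permutation test, two-sided, p = 0.4) and of -0.091 without saline 3.

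Rbfox2 (chr15:77078990-77307004), the RBFOX protein expressed in most tissues, was at 11.8, 11.6 and 3.93 FPKM in saline and at 8.64, 8.11 and 7.97 in ISO. The ISO libraries lay close together, below saline 1 and 2 and above saline 3. The log2 fold change was -0.0025 (limma adjusted p = 0.998), and -0.46 without saline 3 (SE 0.16, limma adjusted p = 0.428). Rbfox1, its paralog in muscle and neurons, was at 1.08, 1.46 and 2.71 FPKM in saline and at 1.15, 0.939 and 0.939 in ISO. Saline 3 was the highest library for this gene, and the groups overlapped (log2 fold change -0.41, SE 0.32, limma adjusted p = 0.699, and -0.17 without saline 3). The gene length recovered for Rbfox1, 55984 bases, was above the 4400 bases of its annotated exons. That of Rbfox2, 12362 bases, was above its 8140. The counted features are thus uncertain, and the low FPKM of Rbfox1 should not be read as near absence.

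CELF genes were low apart from Celf2, a CELF protein expressed in heart. Celf1, left out at a mean of 0.211 FPKM, had a recovered length of 15943 bases, above the 8446 bases of its annotated exons. Its counted feature is uncertain, and its low level should not be read as absence. Celf2 (chr2:6539694-7509563) was at 8.44, 9.79 and 6.58 FPKM in saline and at 6.91, 6.22 and 13.9 in ISO. ISO 3 alone was above the saline range, and the log2 fold change of 0.048 (limma adjusted p = 0.958) was -0.16 by median of ratios and -0.19 by quantiles. Celf3 and Celf5, which are mainly neuronal, stood out in 1 library. Celf3 was at 0.278, 0.808 and 5.44 FPKM in saline and at 0.399, 0.380 and 0.314 in ISO. Celf5 was at 0.774, 0.765 and 4.65 FPKM in saline and at 1.03, 0.302 and 0.749 in ISO. For Celf3 saline 3 held 77 reads (95% exact Poisson interval 4.29 to 6.80 FPKM, counting error only). Celf3 and Celf5 passed the limit only through saline 3, so its place as their highest library followed from the selection. Celf4 was at 1.13, 0.972 and 2.58 FPKM in saline and at 0.894, 0.505 and 2.51 in ISO, with saline 3 and ISO 3 highest. Its recovered length, 10765 bases, was also above that of its annotated exons, 8583 bases. The log2 fold changes of Celf3, Celf4 and Celf5 were -0.85, -0.20 and -0.64 (limma adjusted p = 0.699, 0.860 and 0.699), and -0.16, 0.073 and -0.086 without saline 3.

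Neuronal markers gave a mixed picture in saline 3. Snap25, a synaptic vesicle fusion protein, was at 13.3 FPKM there and at 1.08 to 5.25 in the other 5 libraries, and Syt1 was at 4.63 against 0.430 to 1.86. Dbh and Th, the enzymes that define noradrenergic neurons, were listed at 0 in saline 3, and Dbh was at 4.72 to 8.02 FPKM elsewhere. The summed list of neuron and Schwann cell markers was at 46.7 FPKM in saline 3, within the 40.8 to 171 of the other libraries, and its part in the values of the CELF genes was not tested.

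The SR genes shared a pattern across libraries rather than between groups. Of the 9, 8 were lowest in saline 3, all but Srsf9, where over all genes tested 52.8% were lowest in that library. Their summed level was 763, 779 and 209 FPKM in the saline libraries and 633, 605 and 912 in the ISO libraries. Saline 3 was thus far below the other 5 libraries. The hnRNP genes summed to 1071, 1098 and 1058 FPKM in saline and to 964, 999 and 1181 in ISO. That level sum in saline 3 rested on Hnrnpa1 and Hnrnpa2b1, since the other 18 hnRNP genes summed to 915, 919 and 519 FPKM in saline and to 793, 811 and 994 in ISO, and 12 of the 20 were lowest in saline 3. The median SR fold change was 0.48 on the log2 scale with 8 of 9 above 0 (0.26 by median of ratios, 0.43 by quantiles), and it turned to -0.14 without saline 3, with 0 of 9 above 0, and to -0.30 with quality weights.

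**Figure D4:**
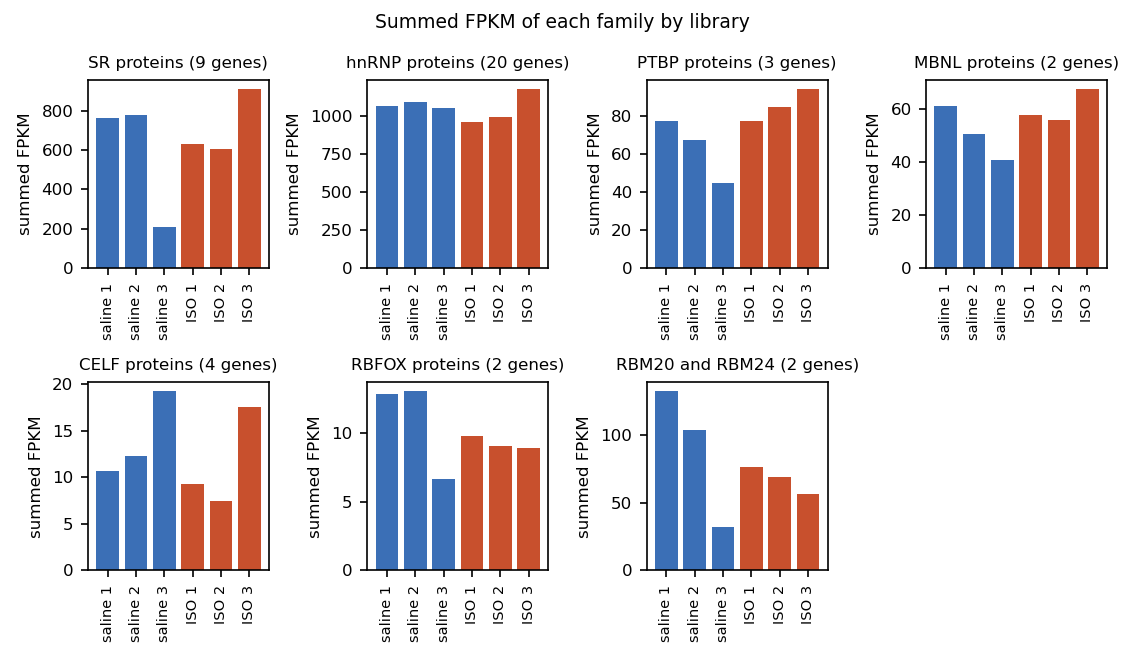
Summed FPKM of the members of each family in each library (bars from 0, a panel per family, saline and ISO in different colours). The SR sum is at 209 in saline 3 and between 605 and 912 in the other 5 libraries, while the hnRNP sums of all 6 libraries lie between 964 and 1181, with Hnrnpa1 and Hnrnpa2b1 included.

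Srsf5, Srsf6 and Srsf2 had the highest mean levels of the SR genes. Srsf5 (chr12:80945504-80950507) was at 253, 188 and 77.4 FPKM in saline and at 180.1, 183 and 272 in ISO. Saline 3 was the lowest library and ISO 3 the highest, with overlap between the groups (log2 fold change 0.42, SE 0.45, limma adjusted p = 0.730, and -0.071 without saline 3). Srsf6 (chr2:162931528-162937121) was at 143, 175 and 18.6 FPKM in saline and at 129, 115 and 175 in ISO. Its saline 3 value rested on 183 reads and was 8.57-fold below the mean of saline 1 and 2. Srsf6 had the largest fold change of the SR genes, 0.80 on the log2 scale with an SE of 0.79 (limma adjusted p = 0.715). Without saline 3 it was -0.21. Srsf2 (chr11:116849901-116853094), also known as SC35, a marker of nuclear speckles, was at 116, 130 and 30.8 FPKM in saline and at 96.2, 88.2 and 157 in ISO. ISO 1 and 2 lay below saline 1 and 2, and ISO 3 above them, and the log2 fold change was 0.49 with saline 3 and -0.16 without it. As 25.3% of its exonic bases are shared with other annotated genes and the strand setting of the counting is not given, its reads are uncertain.

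Srsf11, Srsf4 and Srsf7 were likewise lowest in saline 3. Srsf11 was at 75.0, 78.7 and 17.6 FPKM in saline and at 77.6, 75.8 and 70.2 in ISO. Srsf4 was at 40.3, 52.6 and 13.7 FPKM in saline and at 42.0, 38.5 and 51.6 in ISO, with 43.0% of its exonic bases shared with another gene. Srsf7 was at 68.2, 85.7 and 13.5 FPKM in saline and at 55.7, 49.5 and 120 in ISO. For Srsf11, 5 of the libraries were within 70.2 to 78.7 FPKM, whereas Srsf7 was spread over 49.5 to 120 in them. Their log2 fold changes were 0.64, 0.48 and 0.66, and -0.045, -0.075 and -0.14 without saline 3. Srsf3 (chr17:29032628-29043373), a small SR protein that also takes part in mRNA export, was at 19.0, 21.4 and 2.96 FPKM in saline and at 12.4, 15.1 and 18.6 in ISO. Without saline 3 it was the 1 SR gene whose groups did not overlap, with ISO lower by 0.39 on the log2 scale (limma adjusted p = 0.573), and with saline 3 the log2 fold change was 0.41. Srsf9 was the exception to the pattern, at 21.5, 26.2 and 28.2 FPKM in saline and at 22.7, 25.0 and 20.3 in ISO. Saline 3 was its highest library, and the log2 fold change was -0.15 (SE 0.22, limma adjusted p = 0.792) and -0.068 without saline 3.

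Srsf1, the founding member of the family, was below the limit at 0.997, 0.624 and 0.188 FPKM in saline and at 0.125, 0.640 and 3.05 in ISO. These values rested on 170, 68 and 9 reads and on 16, 57 and 296 reads. The gene length recovered from its FPKM steps was 17284 bases, longer than the 7259 bases that RefSeq gives the whole gene with its introns. Only 60 of 11792 genes tested had a recovered length above their RefSeq span, so the counted feature for Srsf1 is uncertain and its low level should not be read as absence.

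Hnrnpa1 and Hnrnpa2b1, the core hnRNP A/B proteins, ran opposite to the SR genes. Hnrnpa1 (chr15:103240432-103246692) was at 63.3, 85.7 and 290.3 FPKM in saline and at 86.9, 94.4 and 86.0 in ISO. Hnrnpa2b1 (chr6:51460932-51469894) was at 93.0, 93.9 and 249 FPKM in saline and at 83.6, 93.4 and 101 in ISO. Saline 3 was 3.90-fold above the mean of saline 1 and 2 for Hnrnpa1 and 2.66-fold for Hnrnpa2b1, and the other 5 libraries lay within 63.3 to 94.4 and 83.6 to 101 FPKM. Both have processed copies elsewhere in the genome, so the assignment of their reads is uncertain. The log2 fold changes were -0.38 (SE 0.53, limma adjusted p = 0.777) and -0.48 (SE 0.40, limma adjusted p = 0.70), and they were 0.27 and -0.017 without saline 3. Their ratio was 0.680, 0.913 and 1.17 in saline and 1.04, 1.01 and 0.853 in ISO (log2 difference 0.10, exact permutation test, two-sided, p = 0.8, and 0.29 without saline 3). Over the 5 ratios between paralogs that were compared, of which Celf1 to Celf2 differed by 0.67 on the log2 scale (0.13 without saline 3, exact permutation test with all libraries, two-sided, p = 0.6), all Benjamini-Hochberg adjusted p were 1.0. Celf1 rested on only 2 reads in saline 3 and 6 in ISO 1.

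Hnrnph1 (chr11:50376990-50386528), a G-run binding protein and the hnRNP gene with the highest mean, was at 217, 239 and 58.2 FPKM in saline and at 185, 178 and 230 in ISO. Saline 3 was 3.91-fold below the mean of the other saline libraries, and the log2 fold change was 0.44 with it and -0.21 without it. Its X-linked paralog Hnrnph2 was at 31.5, 28.5 and 18.9 FPKM in saline and at 38.1, 39.2 and 27.8 in ISO. ISO 1 and 2 were the highest libraries, and ISO 3 lay within the saline range (log2 fold change 0.41, SE 0.28, limma adjusted p = 0.699, and 0.20 without saline 3). Hnrnpl (chr7:28808541-28822266), which binds CA repeats, was at 126, 136 and 44.0 FPKM in saline and at 80.4, 75.0 and 113 in ISO. All ISO libraries were below saline 1 and 2 and above saline 3. The log2 fold change was -0.051 with all libraries, -0.57 without saline 3 (SE 0.22, limma adjusted p = 0.468) and -0.68 with quality weights (limma adjusted p = 0.0445).

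Hnrnpm and Hnrnpr were the hnRNP genes whose groups did not overlap. Hnrnpm (chr17:33646233-33686860) was at 35.0, 32.4 and 36.7 FPKM in saline and at 39.8, 46.2 and 36.9 in ISO. ISO 3 was above saline 3 by a narrow margin, and the means were 34.7 ± 2.15 and 41.0 ± 4.75 FPKM (SD, n = 3 each; log2 fold change 0.23, limma adjusted p = 0.701). Hnrnpr (chr4:136310942-136359447) was at 6.41, 6.42 and 4.69 FPKM in saline and at 7.42, 6.91 and 7.75 in ISO. The 6 libraries spanned a small range, and the log2 fold change was 0.30 (SE 0.24, limma adjusted p = 0.699) and 0.17 without saline 3. By median of ratios, Hnrnpr was the 1 splicing regulator with ISO higher in every library (7.19% of all genes), and Hnrnpa2b1 the 1 with ISO lower (7.55%).

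Hnrnpk, a KH-domain protein, and Hnrnpa0 were also among the smallest p of the family, with log2 fold changes of 0.36 and 0.38 (limma adjusted p = 0.699 for both), and 0.11 and 0.097 without saline 3. Hnrnpk was at 73.7, 65.6 and 40.3 FPKM in saline and at 65.9, 74.2 and 86.3 in ISO. Hnrnpa0 was at 37.2, 30.1 and 18.2 FPKM in saline and at 33.6, 33.6 and 40.9 in ISO. Saline 3 was the lowest library for both. Hnrnpul1 was at 30.6, 36.3 and 35.1 FPKM in saline and 30.0, 30.8 and 36.5 in ISO (log2 fold change -0.068, 95% interval -0.56 to 0.43, limma adjusted p = 0.904). The remaining hnRNP genes (Hnrnpa3, Hnrnpab, Hnrnpc, Hnrnpd, Hnrnpdl, Hnrnpf, Hnrnph3, Hnrnpll and Hnrnpul2) had overlapping groups. Of these, Hnrnpd and Hnrnpf had recovered lengths of 8910 and 3375 bases, above the 7354 and 3047 bases of their annotated exons.

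Hnrnpu, which encodes a nuclear matrix protein, was the most uneven. It was at 1.21, 0.617 and 0.331 FPKM in saline and at 0.211, 5.13 and 1.54 in ISO, from 169, 55 and 13 reads and from 22, 374 and 122 reads. ISO 2 was the highest library and ISO 1 the lowest. Hnrnpu passed the limit only through ISO 2, so the place of ISO 2 as its highest library, and part of its unevenness, followed from the selection. The log2 fold change of 0.66 (SE 0.59, limma adjusted p = 0.701) was 1.23 without ISO 1 and 0.059 without ISO 2. Hnrnpu shares 6.93% of its exonic bases with Cox20, which was at 36.4, 15.0 and 0.408 FPKM in saline and at 0.230, 20.9 and 4.64 in ISO. Cox20 was likewise lowest in ISO 1 and saline 3, and without strand information reads of the overlapping part cannot be assigned to either gene. The gene length recovered for Hnrnpu, 14134 bases, was also above the 11599 bases of its annotated exons.

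Promoter sequence was examined for all splicing regulators with a matched window, since beta-adrenergic agonists raise cAMP and its response element has a short core. RefSeq windows from 250 bases before to 50 after a transcript start (GRCm38.p6) were matched for 36 of the 42 genes. The core TGACGT was searched on both strands, where it reads ACGTCA on the other. It was found in 9 of 36 (25.0%: Celf3, Hnrnpa2b1, Hnrnpa3, Hnrnph1, Hnrnph2, Hnrnpm, Srsf11, Srsf3 and Srsf6), in 13.1% of 9399 genes tested and in 7.51% of all 32851 windows. The full palindrome TGACGTCA, which holds both, was in 1 of the 36 (Celf3), in 3.44% of the genes tested and in 1.79% of all windows. The windows below, with the core in capitals, are from Srsf3, Srsf6, Srsf11 and Hnrnph1, which were low in saline 3, and from Hnrnpa2b1, which was high there. The start used for Srsf6 was not matched to a GENCODE M21 transcript, while those of the other 4 were. A match is a description of these letters, not evidence of binding.
Srsf3, chr17:29032563-29032598, plus strand, core 82 bases upstream of the start: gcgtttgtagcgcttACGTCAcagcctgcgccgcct
Srsf6, chr2:162931443-162931478, plus strand, core 50 bases upstream: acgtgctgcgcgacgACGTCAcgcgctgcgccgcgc
Srsf11, chr3:158036668-158036703, minus strand, core 82 bases upstream: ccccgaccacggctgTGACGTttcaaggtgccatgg
Hnrnph1, chr11:50376855-50376890, plus strand, core 120 bases upstream: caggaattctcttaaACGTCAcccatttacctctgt
Hnrnpa2b1, chr6:51469892-51469927, minus strand, core 67 bases upstream: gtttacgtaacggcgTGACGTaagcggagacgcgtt
Among the other genes with the core, Hnrnpa3 and Hnrnpm had log2 ratios of saline 3 to the mean of saline 1 and 2 of -0.056 and 0.12. The part of the core in the values of any of these genes was not tested. Without saline 3, 0 of all 12269 genes tested passed the test between ISO and saline, so the absence of genes with the core says nothing about the core.

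Many splicing regulators are known to limit their own level through an alternative exon whose inclusion leads to nonsense-mediated decay (NMD). In the GENCODE M21 annotation, 24 of the 42 genes (57.1%) had at least 1 transcript annotated as an NMD substrate, against 28.2% of the 11897 genes tested that were matched. The SR genes had 8 of 9 (88.9%) and the hnRNP genes 10 of 20 (50.0%). The number of annotated transcripts per gene, which was 1 for Hnrnpa0 and 34 for Hnrnpk, was not taken into account in these shares. Gene-level FPKM add such transcripts to the coding ones, so the values above cannot tell a change in the use of these exons from another change in level.

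Saline 3 departed from saline 1 and 2 along gene length as well. Over all genes tested the median log2 ratio of saline 3 to the mean of saline 1 and 2 was 0.49 for genes up to 1000 bases of recovered length, and -0.60 for genes of 4000 to 8000 bases. The median length of the splicing regulators was 4051 bases, against 3431 over all genes, and their shortest was 1264 bases. By length, their median log2 ratio was -0.63 (2 genes of 1000 to 2000 bases), -0.91 (18 of 2000 to 4000), -0.20 (14 of 4000 to 8000) and -0.47 (8 longer ones). Over all genes in the same bins it was -0.015, -0.40, -0.60 and -0.56. The same log2 ratio had a median of -0.58 over the splicing regulators, -1.97 over the SR genes, -0.40 over the hnRNP genes, -1.80 over Rbm20 and Rbm24 and 1.24 over the CELF genes, against -0.39 over all genes. Of the CELF genes, Celf3 and Celf5 passed the limit only through saline 3. Leaving out saline 3 lowered the median SD of log2(FPKM + 1) across libraries from 0.46 to 0.22 for the splicing regulators, from 0.82 to 0.28 for the SR genes and from 0.44 to 0.26 for all genes. The part of length in these gaps was not tested. ISO 3 was the highest of the 6 libraries for 18 splicing regulators (42.9%) and for 30.1% of all genes.

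Genes that act with the splicing regulators were read from lists. None of their members passed the limma threshold, and 1 gene, Rbm38, had an unadjusted p under 0.05. Of 10 kinases and importers of SR proteins, 6 had fold changes above 0 and 4 below, with a median of 0.27 (-0.027 without saline 3). Clk1, a nuclear kinase that phosphorylates SR proteins, was at 250, 258 and 16.4 FPKM in saline and at 247, 230 and 321 in ISO. Saline 3 was far below the other 5 libraries, as for the SR genes, and the log2 fold change of 1.34 (SE 0.99, limma adjusted p = 0.699) was 0.050 without it. Srpk3, the SR kinase of striated muscle, was at 29.3, 39.2 and 10.2 FPKM in saline and at 20.6, 14.7 and 10.5 in ISO. Its log2 fold change of -0.60 (limma adjusted p = 0.70) was -1.15 without saline 3.

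Of 18 SR-related proteins and coactivators, 17 had fold changes above 0 and 1 below, with a median of 0.32 (0.10 by median of ratios, -0.025 without saline 3). Tra2a, a splicing activator chosen after its values were seen, was at 123, 128 and 7.08 FPKM in saline and at 128, 125 and 127 in ISO. Son, a scaffold of nuclear speckles, was at 76.1, 80.3 and 229 FPKM in saline and at 96.0, 84.0 and 56.6 in ISO. Saline 3 was thus the lowest library for Tra2a and the highest for Son, whereas the other 5 libraries of Tra2a lay within 123 to 128 FPKM.

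Factors of the 3′ splice site and the U2 particle (18 genes) had 10 fold changes above 0 and 8 below, with a median of 0.11 that was -0.11 by median of ratios and -0.073 without saline 3. U1 factors (8 genes) had 5 above and 3 below, with a median of 0.51 that was -0.21 without saline 3.

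Of 43 other tissue splicing regulators, 35 could be tested, 22 with fold changes above 0 and 13 below (median 0.14, -0.077 by median of ratios and -0.071 without saline 3). Rbm38, an RNA-binding protein that regulates splicing in differentiating muscle and red blood cells, was at 86.9, 71.9 and 74.0 FPKM in saline and at 50.0, 48.3 and 42.0 in ISO. Each ISO library was below each saline library, with or without saline 3, and the log2 fold change was -0.72 (SE 0.21, limma adjusted p = 0.699) and -0.75 without saline 3. Of the 35 genes, 2 had every ISO library above every saline library (12.8% of all genes). Another 2, Rbm38 among them, had every one below (3.72%). None of the 42 genes described above had every ISO library below every saline library over all 6 libraries. Nova1, a neuronal regulator, was at 2.57, 5.70 and 9.45 FPKM in saline and at 2.94, 2.14 and 2.70 in ISO, with the highest value again in saline 3.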

How the data were processed

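Polyadenylated RNA of left ventricle was sequenced in 3 ISO and 3 saline libraries, grouped by their labels. The authors deposited FPKM values for 21989 gene symbols. Per the submitters' processing notes, which name tools and the build GRCm38 without role or order, HISAT2 2.1.0, HTSeq 0.7.2, Cufflinks 2.2.1, CASAVA 1.8, fastp 0.20.0 and DESeq were used. The annotation release and the strand setting are not given in the sources used here, so reads of overlapping or near-identical genes are uncertain.

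Whole reads and library totals were recovered from the FPKM steps: 16815 of 16816 genes above 0 in at least 2 libraries gave whole reads (within 0.0001). Values were fitted as log2(FPKM + 1) in R 4.3.3 by limma 3.58.1 (two-sided moderated test, mean-variance trend) for the 12269 genes averaging at least 1 FPKM, with Benjamini-Hochberg adjustment. Fold changes on this scale understate those of low genes. Ratios between paralogs were tested by exact permutation. Recovery and fit were tested on simulated data. Other steps used scipy 1.17.1, pandas 2.3.3 and numpy 2.4.6 under Python 3.11.15. Positions and shared exonic bases are from GENCODE M21 on GRCm38.

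The splicing regulators and all lists were chosen with earlier results of these data known. Named genes are all CELF, MBNL, RBFOX and PTBP genes, Rbm20 and Rbm24. Of the SR and of the hnRNP genes, the rule takes 4 per direction by p and the 3 with the highest means, and any with a mean FPKM between 0.5 and 2. Of each other list, they are up to 2 genes per direction. Srsf3, Hnrnpm, Cox20, Th and Tra2a were named after their values were seen. Every pair of libraries differed by more than sampling noise (the closest, ISO 1 and ISO 2, had a median chi-square 4.37 times that of sampling), and all 6 were counted. Alternatives were other pseudocounts, filters and scalings, quality weights, no trend, a replicate block, limma-voom and each library left out.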

Additional observations from a re-analysis of the deposited data

How the results depend on the processing

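No gene passed the threshold under any alternative except sample quality weights (768 genes, 2 of them splicing regulators) and leaving out a library (0 to 16 genes, the 16 without ISO 1, and 0 splicing regulators). Splicing regulators with groups that did not overlap numbered 4 (16.5% of all genes), and 2 by median of ratios (14.7%), 1 by quantile normalization (14.0%) and 5 to 12 when a library was left out (22.0% to 30.0%). Of the 42 splicing regulators, 14 kept the direction of their fold change in all alternatives. By median of ratios the log2 fold change turned to -0.16 for Celf2, -0.16 for Hnrnpa3, -0.15 for Hnrnpab, -0.059 for Hnrnpd, -0.16 for Hnrnpdl, -0.022 for Hnrnph3 and -0.14 for Mbnl1. By quantile normalization it turned to -0.19 for Celf2, -0.12 for Hnrnpa3, -0.084 for Hnrnpd, -0.051 for Hnrnpdl and -0.037 for Mbnl1. With a pseudocount of 0.1, Rbfox2 was at 0.017. With quality weights, which gave saline 3 a weight of 0.0772, it turned to -0.34 for Celf2, -0.034 for Hnrnpa0, 0.39 for Hnrnpa1, -0.047 for Hnrnpab, -0.24 for Hnrnpd, -0.52 for Hnrnpdl, -0.060 for Hnrnpf, -0.25 for Hnrnph1, -0.15 for Hnrnph3, 0.0051 for Hnrnpul2, -0.041 for Mbnl1, -0.00075 for Mbnl2 and -0.095 for Ptbp2. Among SR genes it turned to -0.53 for Srsf10, -0.33 for Srsf2, -0.36 for Srsf3, -0.081 for Srsf4, -0.30 for Srsf5, -0.27 for Srsf6, -0.38 for Srsf7 and 0.089 for Srsf9. The cause was not tested. Leaving out each library in turn gave these ranges: Celf2 -0.28 to 0.25, Celf4 -0.55 to 0.073, Hnrnpa1 -0.82 to 0.27, Hnrnpa3 -0.0091 to 0.17, Hnrnpab -0.0075 to 0.18, Hnrnpd -0.064 to 0.34, Hnrnpdl -0.33 to 0.31, Hnrnph1 -0.21 to 0.80, Hnrnph3 -0.11 to 0.46, Hnrnpl -0.57 to 0.23, Hnrnpul2 -0.21 to 0.097 and Ptbp2 -0.050 to 1.72. They were -0.46 to 0.23 for Rbfox2, -0.65 to 0.33 for Rbm20, -0.97 to 0.077 for Rbm24, -0.24 to 0.75 for Srsf10, -0.045 to 1.00 for Srsf11, -0.16 to 0.86 for Srsf2, -0.39 to 0.86 for Srsf3, -0.075 to 0.86 for Srsf4, -0.071 to 0.78 for Srsf5, -0.21 to 1.38 for Srsf6 and -0.14 to 1.15 for Srsf7. The labels do not say whether the replicate numbers pair the samples. The correlation of deviations was 0.013, -0.15 and -0.025 for same-numbered libraries, which with 3 libraries per group cannot exclude pairing. The replicate block called 0 genes and 0 splicing regulators, with 4 splicing regulators not overlapping. Saline 3, with 2776152 reads, limits the precision of low genes most.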
